A study of Mus musculus with 11 samples.

Results

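Oc90 cells of the E16 mouse cochlea are described here, which are cells with a strong signal for Oc90 (otoconin-90) and none for the hair cell (HC) gene Pou4f3. They were chosen by these 2 measured values, a deposited Oc90 value of at least 3.5 (the natural logarithm, ln, of 1 plus 10000 times the share of the cell's transcripts) and a Pou4f3 value of 0. The rule took 473 of the 7961 E16 cells and left 7488 other cells. The whole series holds 30634 cells. All cells came from wild-type CD1 mice at embryonic day 14 (E14, 2 libraries), E16 (3 libraries), postnatal day 1 (P1, 4 libraries) or postnatal day 7 (P7, 2 libraries), with no treatment and no transgene in any group. The cochleae of the pups of a litter, of either sex, were pooled, the duct was separated from its surroundings with thermolysin, and single cells were captured on the 10x Chromium platform, which counts transcripts near their 3′ end by unique molecular identifiers (UMIs). The preparation aimed at the floor of the duct, with its roof and lateral wall cut away, and what the dissection contributed to the number of Oc90 cells in a library was not tested. Levels are in CPM, a gene's UMIs per 1000000 UMIs of a cell, as the mean of a library's cells of that class, and differences are in log2(CPM + 10) with their standard error (SE).

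The cochlear duct is an epithelial tube with a sensory floor, which holds the HCs and supporting cells, and a non-sensory roof, which forms Reissner's membrane and, towards the lateral wall, joins the stria vascularis. Oc90 is the main soluble protein of otoconia, the calcium carbonate crystals of the vestibular organs, and is also known from the embryonic roof of the cochlear duct, which forms no such crystals. The transcription factor Otx2 is known for its role in the non-sensory roof, and marginal cells of the stria vascularis secrete potassium into the endolymph that fills the duct.

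The 3 E16 libraries differed in size and in their share of Oc90 cells. Replicate 1 held 58 Oc90 cells among 1247 cells (4.65%, exact Clopper-Pearson 95% interval 3.55% to 5.97%), replicate 2 held 111 among 2813 (3.95%, 3.26% to 4.73%) and replicate 3 held 304 among 3901 (7.79%, 6.97% to 8.68%). The share in replicate 3 lay above both others beyond counting error, the only error that such intervals cover. Oc90 cells were deeper than the rest, with medians of 2631, 4267 and 3588.5 UMIs in replicates 1 to 3 against 2463, 2659 and 2725 in all other cells. Libraries shared 6 to 13 cell barcodes in pairs, and 0 of these belonged to Oc90 cells in both libraries. No doublet caller was run, and 15 Oc90 cells, 10 of them in replicate 2, had more than 3000 detected genes. Another 7 cells passed the Oc90 threshold but held Pou4f3, 6 of them in replicate 2, and stayed with the other cells. The labels number the libraries of an age, and p-values therefore measure the spread between libraries, which may be partly technical.

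The threshold fell in a sparse stretch between a large group of cells with little Oc90 and a smaller group with much (plot of Oc90 values). Among E16 cells without Pou4f3, 5611 had no Oc90 UMI, 553 lay under 1.5 on the ln scale, 663 between 1.5 and 2.5, 42 between 2.5 and 3.5, 38 between 3.5 and 4.5, 124 between 4.5 and 5.5, and 311 above. The 5 cells just inside the threshold stood at 3.58, 3.60, 3.64, 3.70 and 3.70, and the 5 just outside at 3.46, 3.45, 3.34, 3.34 and 3.30. Oc90 (chr15:65876053-65912397, minus strand) took a median of 3.10% of all UMIs in an Oc90 cell, 109 UMIs. Its level was 24082, 22424 and 39489.7 CPM in the Oc90 cells of replicates 1 to 3 and 52.8, 73.2 and 107 CPM in other cells. These values restate the rule and were not tested. Of the other cells, 18.1% had at least 1 Oc90 UMI, with a median of 1, and HCs (cells with a Pou4f3 value of at least 2) held 44.3, 177 and 72.7 CPM, 0.184%, 0.790% and 0.184% of the level in Oc90 cells of the same library, so low Oc90 values were found also in cells that are not known to make it.

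**Figure D1:**
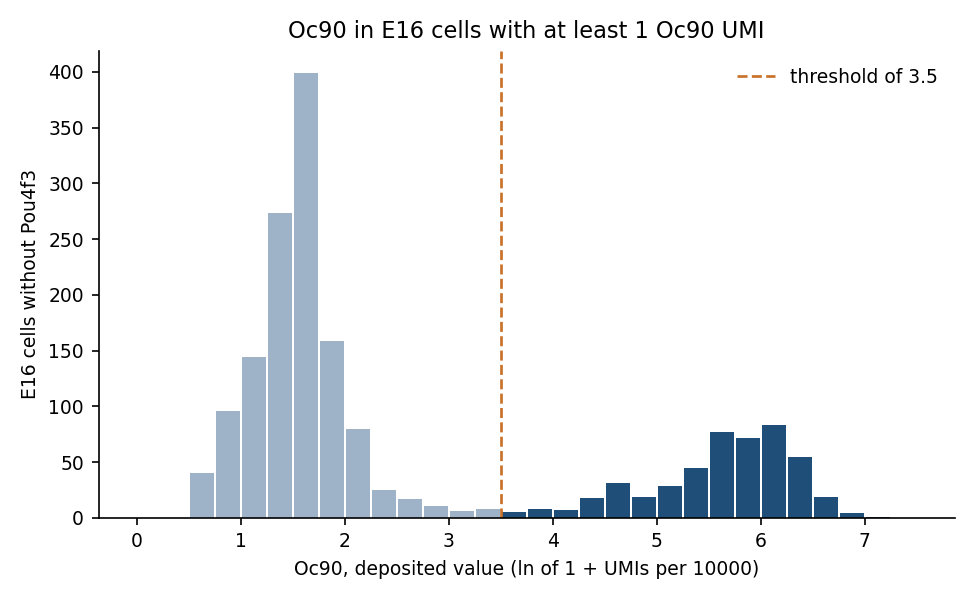
Number of E16 cells without Pou4f3 (y axis) by their deposited Oc90 value (x axis, ln of 1 plus UMIs per 10000), for cells with at least 1 Oc90 UMI. Dark bars lie at or above the threshold of 3.5 (dashed line), and only 42 cells lie between 2.5 and 3.5 and 38 between 3.5 and 4.5.

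The label of roof-type cells was checked against the other 2 genes given as its markers, Otx2 and Vmo1. Otx2 (chr14:48657677-48673819, minus strand) averaged 134, 125 and 116 CPM in the Oc90 cells of replicates 1 to 3 against 0.0823, 1.06 and 0.547 CPM in the other cells of the same libraries. The groups lay far apart in every library (log2 difference 3.68 ± 0.24 SE, adjusted p = 1.93e-07 by limma). Vmo1 (chr11:70513516-70514616, minus strand), which encodes a secreted protein first known from the outer layer of the egg's vitelline membrane, averaged 251, 226 and 624 CPM against 0.513, 1.06 and 0.958 CPM (log2 difference 4.97 ± 0.27 SE, adjusted p = 4.35e-08 by limma). At most a minority of the single cells showed either gene at this depth. With each cell drawn down to 1500 UMIs, Otx2 was seen in 12.7% of Oc90 cells (28.5% without drawing down), in 0.0801% of other cells and in 0 of 448 HCs, which allows a share of up to 0.670% of HCs with a UMI at this depth and sets no limit on HCs that express the gene. Vmo1 was seen in 30.7% of Oc90 cells (37.6% without drawing down), 0.134% of other cells and 0.223% of HCs. The median depth was 3597 UMIs in Oc90 cells, 2692.5 in other cells and 3523.5 in HCs. Both markers were under 10 CPM in the other cells of every library and so entered the test only through the Oc90 cells, and their p-values are no support for the label. As levels, both were far higher in Oc90 cells in every library.

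Promoters are shown for Vmo1, a marker of these cells, and for Cldn11, a tight-junction gene that separates their subsets at E16 and E14 below. The cells express Otx2, and homeodomain proteins of the OTX type are known to bind the letters TAATCC. The 250 bases before the RefSeq gene start are given 5′ to 3′ on the coding strand (build GRCm38.p6), for Vmo1 chr11:70514617-70514866 on the minus strand and for Cldn11 chr3:31149670-31149919 on the plus strand. Capitals mark TAATCC or, on the opposite strand, GGATTA, and the first capital lies 116 bases before the start in Vmo1 and 175 in Cldn11.
Vmo1: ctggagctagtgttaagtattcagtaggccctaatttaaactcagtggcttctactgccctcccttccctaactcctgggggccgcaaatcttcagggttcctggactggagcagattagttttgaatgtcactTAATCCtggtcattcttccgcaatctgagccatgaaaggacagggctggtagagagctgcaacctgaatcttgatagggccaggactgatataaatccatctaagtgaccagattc
Cldn11: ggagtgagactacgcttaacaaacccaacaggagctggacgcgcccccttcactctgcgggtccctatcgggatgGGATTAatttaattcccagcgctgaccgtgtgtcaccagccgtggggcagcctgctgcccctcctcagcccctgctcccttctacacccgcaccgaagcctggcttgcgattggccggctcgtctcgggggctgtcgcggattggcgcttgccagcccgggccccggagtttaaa
Both strands were searched over the 250 bases, and 6.25% of all 32851 RefSeq promoters in the table held the motif. Of the 15 genes highest in Oc90 cells (below), 13 had a promoter in the table and 1 of these, Vmo1, held it. The check over all called genes is void, since under 80% of them had a promoter in the table (585 of 763 called higher). Both promoters are shown because they hold these letters, and Cldn11 is not among the 15. A match is a string of letters and no evidence of binding, and no match says only that the letters are not in this window.

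Against all other E16 cells, the Oc90 cells expressed a large set of genes that the rest of the epithelium nearly lacked, led by Ttr, Dapl1 and Vmo1. The question was how this epithelium differs from the duct floor it was collected with. The test covered 9145 genes, with 763 called higher (8.34%) and 653 called lower (7.14%), 15.5% in either direction, by limma on log2(CPM + 10) with the library as a block and an adjusted p under 0.05. The median log2 difference over all genes tested was -0.0033. With profiles scaled by median ratio 711 genes were higher and 760 lower, and with Oc90 left out of the total 838 and 605. The balance of directions thus depended on the scaling. A log2 difference on this scale understates the ratio of weakly expressed genes. Among the genes called higher, 180 were under 10 CPM in the other cells of every library, so they entered the test through the Oc90 cells alone.

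Ttr (transthyretin, chr18:20665280-20674321, plus strand), a carrier of thyroid hormone and of retinol with its binding protein, averaged 1107, 602 and 2278 CPM in the Oc90 cells of replicates 1 to 3 and 0.511, 3.22 and 1.87 CPM in other cells. It was the highest of all genes named by size of change (log2 difference 6.62 ± 0.29 SE, adjusted p = 6.22e-09 by limma), and replicate 3 stood above the other libraries. HCs held 0, 0 and 3.18 CPM. Dapl1 followed at 363, 348 and 558 CPM against 0.561, 1.39 and 0.955 CPM (log2 difference 5.27). Secreted or matrix proteins among the 15 highest were Vmo1, Postn (periostin, 274, 213 and 294 CPM against 0.239, 2.95 and 0.880 CPM), Ccdc3 (389, 171 and 131 CPM against 1.13, 1.72 and 0.929 CPM) and the ribonucleases Rnase1 and Rnase4. Rnase1 stood at 158, 118 and 437 CPM against 2.55, 4.35 and 3.73 CPM, and was like Ttr and Vmo1 highest in replicate 3. Genes for metallopeptidases were also among them. Enpep (aminopeptidase A) averaged 324, 492 and 214 CPM against 0.935, 1.89 and 2.68 CPM (log2 difference 4.82). Mme (neprilysin) averaged 316, 340 and 209 CPM against 4.43, 4.91 and 2.08 CPM (log2 difference 4.41), and Ecel1 averaged 518, 521 and 386 CPM against 11.8, 11.1 and 8.29 CPM (log2 difference 4.56). Ttr, Dapl1, Postn, Ccdc3, Rnase1, Enpep, Mme, Anxa1, Kctd8 and Fam20a were under 10 CPM in the other cells of every library. They thus entered the test only through Oc90 cells, and their p-values are no support for the difference. The remaining genes of the 15 were Lypd2 (4.55), Anxa1 (4.36), the GABA-B receptor subunit Kctd8 (4.27), the calcium channel subunit Cacna2d1 (4.18) and Fam20a (4.10), a pseudokinase of the secretory pathway, each with its log2 difference. The mean of Oc90 cells lay above that of other cells in every library for each of these genes, which the rule for naming them required.

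**Figure D2:**
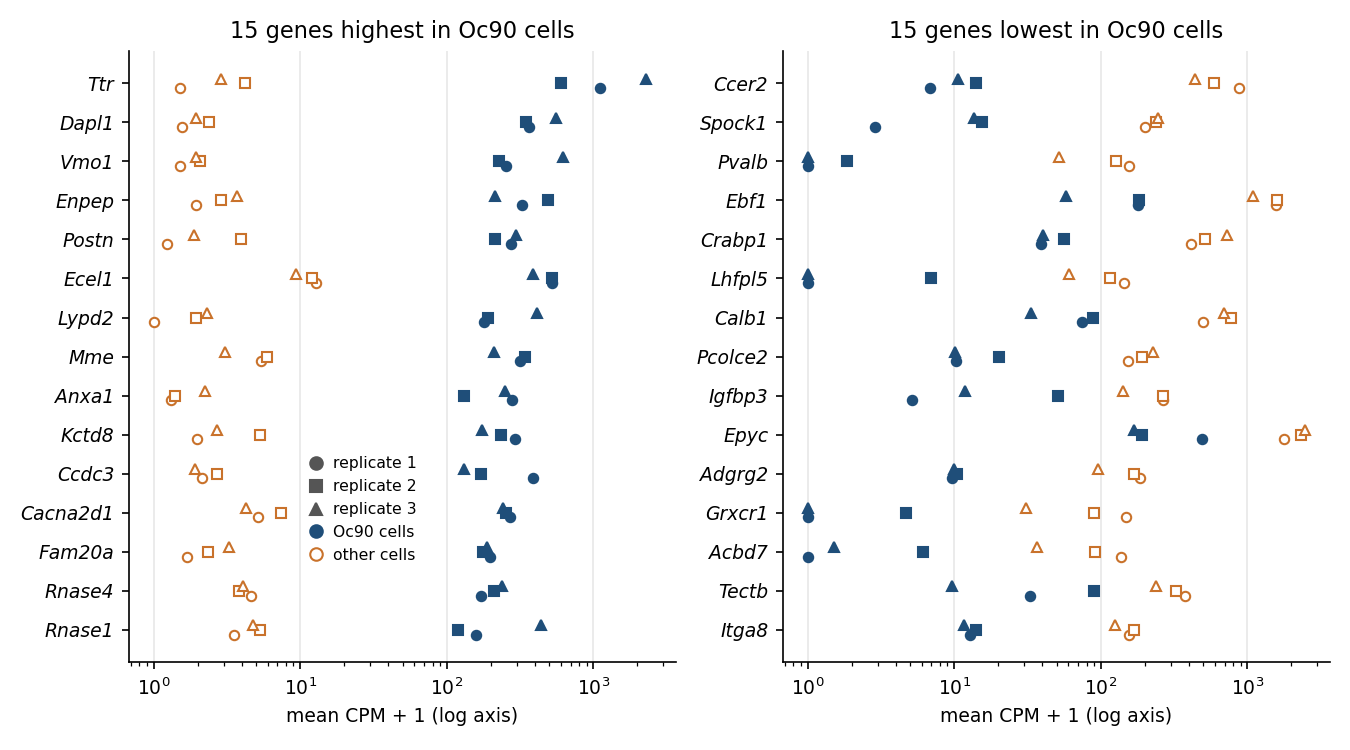
Level (x axis, mean CPM + 1, log axis) of the 15 genes highest (left) and 15 lowest (right) in E16 Oc90 cells by log2 difference. Filled points are Oc90 cells and open points all other cells, with 1 point for each of the 3 libraries (marker shape). Genes were named only where all 3 libraries went the same way. Levels ran from Ttr at 602 to 2278 CPM against 0.511 to 3.22 CPM to Itga8 at 10.7 to 13.0 CPM against 125 to 168 CPM.

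The expression of this program by single cells was broad but uneven. After drawing down to 1500 UMIs, an Oc90 cell had UMIs of a median of 4 of the 15 highest genes (quartiles 2 and 5), and 16 of 473 cells (3.38%) had none. Of other cells 95.1% had none, as did 91.7% of HCs. The 38 Oc90 cells nearest the threshold, with Oc90 between 3.5 and 4.5, had a median of 1 and the 42 cells between 2.5 and 3.5 a median of 0. The 15 genes were themselves chosen on these cells, so these counts describe the spread among cells and are no test.

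Of 12 tested genes of endolymph ion transport, 7 were higher in Oc90 cells and 2 lower, with a median log2 difference of 1.24. Beside this and every later list count against other E16 cells stand 8.34% higher and 7.14% lower over all genes tested. Among the 7, the 3 genes Aqp5, Kcne1 and Kcnq1 were under 10 CPM in all other cells and entered the test only through Oc90 cells. Aqp5, a water channel of secretory epithelia (chr15:99590782-99594829, plus strand), averaged 153, 139 and 179 CPM against 3.33, 3.85 and 5.71 CPM (log2 difference 3.54 ± 0.23 SE, adjusted p = 1.4e-07 by limma). Kcne1 and Kcnq1, the subunits of the potassium channel through which marginal cells secrete, stood at 29.2, 78.5 and 52.1 CPM and at 23.5, 29.3 and 16.8 CPM in Oc90 cells, and other cells had at most 2.16 CPM of either gene in every library (log2 differences 2.40 and 1.46). The sodium pump subunit Atp1b2 rose by 2.11 on the log2 scale. Slc12a2, the cotransporter that loads marginal cells with potassium, was lower at 90.8, 143 and 79.7 CPM against 330, 341 and 182 CPM (log2 difference -1.35), as was the pump subunit Atp1b1 (-0.56). All 6 tested genes of the marginal cell list were higher (median 2.33), which adds the transcription factors Esrrb (2.29), Lmx1a (2.44) and Hmx2 (2.36). Of these 6 genes, 4 were under 10 CPM in the other cells of every library and so could enter the test only through Oc90 cells. The 2 untested genes of that list, Bsnd and Kcnj13, ranged from 3.90 to 39.4 CPM and from 0 to 37.9 CPM in Oc90 cells, against at most 0.117 and 3.35 CPM elsewhere.

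Claudins, which set the tightness of epithelial junctions, were higher in 7 of 10 cases and lower in none (median 0.67), beside 8.34% higher over all genes tested. Cldn4 averaged 632, 930 and 2671 CPM in Oc90 cells as against 85.2, 82.6 and 307 CPM (log2 difference 3.06 ± 0.13 SE, adjusted p = 4.61e-09 by limma). Replicate 3 was highest in both classes, and the ratio within each library kept the same direction. Cldn11 (chr3:31149920-31164324, plus strand), a claudin also known from the basal cells of the stria vascularis, averaged 217, 150.5 and 147 CPM against 2.06, 3.09 and 4.03 CPM (log2 difference 3.78). Under 10 CPM in the other cells of every library, Cldn11 entered the test only through Oc90 cells. Cldn8 (2.71), Cldn3 (1.25), Cldn7 (0.71), Cldn6 (0.62) and Cldn9 (0.41) rose on the log2 scale as well. Keratins were higher too, 4 of 6 tested, with Krt19 at 351, 371 and 741 CPM against 61.8, 58.6 and 119 CPM and Krt18 at 1155, 1392 and 4954 CPM against 339, 381 and 1289 CPM. The calls of Krt18, Krt8 and Krt15 were lost without the library block. Genes of the basement membrane were higher in 7 of 11 cases (median 0.99), among them Hspg2 (perlecan, 1.31), Lamb1 (1.26), Col4a1 (1.01) and Agrn (agrin, 0.90). Of these 7 genes, 1 was under 10 CPM in the other cells of every library.

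Transcription factors that pattern the inner ear divided, with 11 of 25 tested higher, 10 lower and a median log2 difference of 0.046. Higher in Oc90 cells, beside Otx2, Esrrb, Lmx1a and Hmx2, were Tbx1 (85.5, 123 and 92.0 CPM against 1.42, 2.30 and 2.86 CPM, log2 difference 3.16), a gene of non-sensory otic fate and mesoderm, Tbx3 (2.93), Meis2 (2.71), Meis1 (2.34), Pax2 (1.88) and Otx1 (1.68). Gata2 passed narrowly (0.59, limma's adjusted p = 0.0444) and lost the call without replicate 2 or 3. Lower were factors of the sensory floor, with Sox2 at 12.6, 34.0 and 7.52 CPM against 139.5, 113 and 101 CPM (log2 difference -2.29 ± 0.27 SE, adjusted p = 3.56e-05 by limma), Nr2f1 (-2.01), Gata3 (-1.92), Eya1 (-1.81), Prox1 (-1.09) and Sox9 (-0.71). Sox2, which marks prosensory cells, was lower in Oc90 cells in every library. Of the genes called higher in this list, 9 of 11 were under 10 CPM in all other cells.

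A list of choroid plexus genes, an epithelium that secretes the fluid of the brain and shares Ttr and Otx2 with the Oc90 cells, had 6 of 11 tested genes higher and 3 lower (median 0.95). Of the 6, Ttr and Otx2 entered the test only through Oc90 cells. Beside Ttr and Otx2, the higher genes were Car12 (1.03), Sostdc1 (0.95), Calml4 (0.95) and Cldn3. The transcript 1500015O10Rik was far lower, at 289, 221 and 165 CPM against 2467, 2677 and 3140 CPM. Clic6 fell by 1.51 and Trpm3 by 0.69 on the log2 scale, the latter without a call when replicate 2 or 3 was left out, and 15 further genes of the list were too weak to be tested or not analysed here. Retinoid genes were also split, 4 of 12 higher and 3 lower (median 0.51). Of the 4, Ttr and Aldh1a1 were under 10 CPM in the other cells of every library and entered the test only through Oc90 cells. Aldh1a1 and Rdh10, enzymes of retinoic acid synthesis, stood at 109, 89.9 and 31.5 CPM against 4.40, 3.95 and 2.71 CPM and at 91.3, 51.4 and 48.2 CPM against 12.5, 10.9 and 12.2 CPM. The retinoic acid-binding proteins were lower, Crabp1 at 38.3, 55.1 and 39.2 CPM against 412, 512 and 730 CPM (log2 difference -3.35) and Crabp2 by -1.39.

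Wnt4 was the only ligand of its family called higher among the 4 tested, at 143, 104 and 73.9 CPM against at most 3.66 CPM in other cells (log2 difference 3.13 ± 0.25 SE, adjusted p = 1.23e-06 by limma), while Wnt7a was lower (-1.47). Wnt4 too entered the test only through Oc90 cells. Of 23 Wnt receptors, modulators and feedback genes, 2 were higher, the agonist Rspo3 (2.13) and the antagonist Dkk2, and 7 lower (median -0.10). These 2 of 23 stand beside 8.34% higher over all genes tested and are no result about the list. Dkk2 was under 10 CPM in the other cells of every library and so entered the test only through Oc90 cells. Of 7 FGF ligands and receptors, 2 were higher, Fgf9 (91.5, 169 and 71.6 CPM against 10.2, 13.0 and 8.27 CPM, 2.48) and the receptor Fgfr2 (2.20), and 3 lower, Fgf10, Fgf8 (-1.69) and Fgfr3 (-1.65), which are known from the floor (median -0.64). The BMP list was even, with 4 of 16 higher (among them Nog, Id4 and Sostdc1) and 4 lower (median -0.014). Of the 4 higher, 1 was under 10 CPM in the other cells of every library.

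The genes of otoconia formation were higher in 5 of 11 cases and lower in 1 (median 0.56). Of the 5, Atp2b2 and Spp1 were under 10 CPM in all other cells and entered the test only through Oc90 cells. Noxo1, an organizer of the NADPH oxidase that otoconia need, averaged 46.9, 44.2 and 33.3 CPM against 9.52, 10.5 and 11.2 CPM (log2 difference 1.32 ± 0.26 SE, adjusted p = 0.0029 by limma), and its partner subunit Cyba rose by 1.01 and the calcium pump Atp2b2 by 1.87 on the log2 scale. Noxa1, also of this list, was too weak to be tested, at 0, 3.57 and 1.67 CPM against 2.57, 1.81 and 1.58 CPM. Nox3 and Otop1, listed too, had no values at E16. Spp1 (osteopontin) was higher in every library but unevenly, at 184, 152 and 20.1 CPM against 4.19, 1.80 and 0 CPM. The scaffold proteins of otoconia were not enriched. Otol1 (otolin-1) stood at 22.1, 26.8 and 14.2 CPM against 17.1, 17.1 and 44.4 CPM, overlapping between classes, and Sparcl1 at 264, 372 and 281 CPM against 344, 399 and 461 CPM (limma's adjusted p = 0.068). Otog was called at an adjusted p of 0.0484 by limma and lost the call without replicate 2 or 3. Tecta, the chief glycoprotein of the tectorial membrane that the floor secretes, was lower at 94.1, 91.9 and 53.6 CPM against 572, 524 and 549 CPM (log2 difference -2.67), and the tectorial membrane list had 5 of 11 genes lower and 1 higher (median -0.27). Of 29 genes of protein folding and secretion in the endoplasmic reticulum, 4 were higher and none lower (median 0.16). The share called, 13.8%, was near the 15.5% over all genes tested. Of 16 cell cycle genes, 0 passed in either direction (median -0.057), beside 15.5% over all genes tested.

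The genes lowest in Oc90 cells belonged to other cells of the duct floor. Ccer2, an HC gene, stood at 5.80, 13.1 and 9.57 CPM against 870, 595 and 438 CPM (log2 difference -5.01), and Pvalb, Lhfpl5, Grxcr1 and Acbd7, also HC genes, fell by 3.43, 3.23, 2.94 and 2.91 on the log2 scale. The absence of Pou4f3 was part of the rule, so lower HC genes follow in part from how the cells were chosen. With other cells limited to those without Pou4f3, 1338 genes were called. Epyc, a proteoglycan of Kölliker's organ (KO), was lower at 491, 191 and 167 CPM against 1792, 2334 and 2469 CPM (-3.06), as were the calcium-binding protein Calb1 (-3.22), the proteoglycan Spock1 (-3.66), the transcription factor Ebf1 (-3.40), Igfbp3 (-3.11), Tectb (-2.89), Itga8 (-2.85), Adgrg2 (-3.02) and Pcolce2 (-3.17). Lists drawn partly from these same libraries gave 6 of 7 HC genes, 8 of 9 prosensory and supporting cell genes and 9 of 9 KO genes lower and none higher, as the bars by list show, and are no independent evidence of direction. Their summed levels were 195 to 253 CPM in Oc90 cells against 1069 to 2479 CPM for HC genes, 85.0 to 234 against 492 to 574 CPM for prosensory genes and 953 to 1813 against 5474 to 7993 CPM for KO genes.

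**Figure D3:**
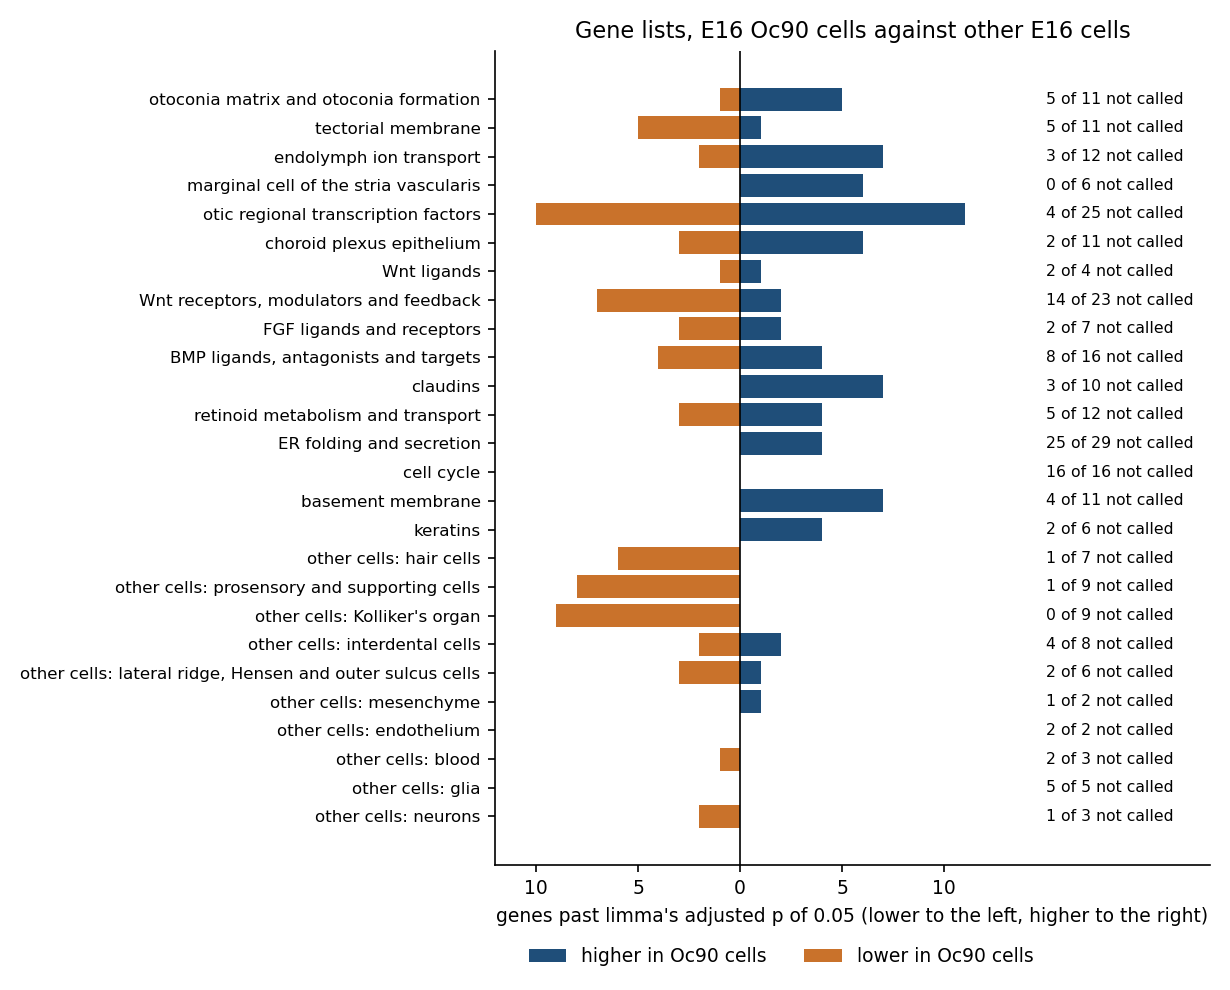
Number of genes in each list past limma's adjusted p of 0.05 (x axis) that were higher (right) or lower (left) in E16 Oc90 cells than in all other E16 cells, with the number not called of those tested at the right edge. Lists of ion transport, marginal cells, claudins, keratins and basement membrane point to the right, and lists of hair, prosensory and KO cells to the left.

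Markers of cells outside the epithelium were checked as a whole. Of 10 mesenchyme genes, 3 (Col1a1, Tbx18 and Twist2) were at 0 in the Oc90 cells of all libraries. Postn and Vim made up nearly all of the summed mesenchyme level of 636 to 763 CPM in Oc90 cells (382 to 680 CPM in others), and Col3a1 and Pdgfra had at most 3.64 CPM. Of 6 immune genes, 5 were at 0 in Oc90 cells and the list summed to 3.65 to 7.22 CPM. Endothelial genes summed to 77.0 to 149 CPM against 54.6 to 85.5 CPM, blood genes to 32.9 to 71.5 CPM against 32.7 to 985 CPM, glial genes to 202 to 317 CPM against 162 to 201 CPM and neuronal genes to 15.7 to 23.5 CPM against 63.1 to 98.6 CPM. Melanocyte and intermediate cell genes summed to 7.79, 66.3 and 15.4 CPM in Oc90 cells and to at most 6.06 CPM elsewhere, highest in replicate 2, where most cells with many genes were found. On the Sparcl1 side of replicate 2 (divided further on) they summed to 124 CPM. Of the tested genes of these lists, Postn was higher, 1 blood and 2 neuronal genes were lower and none of the endothelial or glial genes passed. Of the other floor lists, interdental genes had 2 of 8 higher (Ptgds and Krt19) and 2 lower (Smoc2 and H19, median -0.14). Genes of the lateral ridge, Hensen and outer sulcus cells had 1 of 6 higher and 3 lower (median -1.18). Over all genes tested the shares were 8.34% higher and 7.14% lower. The part of such cells in the results was not tested.

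The study describes its E16 Oc90 cells as 2 clusters, named by Otoa and by Sparcl1, so the cells were divided by the same genes. The Sparcl1 side had at least 1 UMI of Sparcl1 and none of Otoa (15, 48 and 98 cells in replicates 1 to 3), and the Otoa side had the reverse (2, 13 and 75 cells). At 1500 UMIs, Sparcl1 was seen in 24.7% of Oc90 cells, 35.1% of other cells and 4.02% of HCs, and Otoa in 10.8%, 4.71% and 0.223%, and the part of free RNA in the division was not tested. Only 13 cells had UMIs of both and 209 (44.2%) of neither. Cells with neither had medians of 2552, 3069 and 3404 UMIs in replicates 1 to 3, against 3720, 4296.5 and 3984.5 on the Sparcl1 side and 4688, 4469 and 3063 on the Otoa side, so in replicate 3 they were deeper than the Otoa side. The Otoa side made up 3.45% of the Oc90 cells of replicate 1 (exact 95% interval 0.420% to 11.9%), 11.7% of those of replicate 2 (6.39% to 19.2%) and 24.7% of those of replicate 3 (19.9% to 29.9%). Replicate 3, with the largest Otoa share, was also the library with the most Ttr, Vmo1 and Rnase1 per Oc90 cell. Replicate 1, with the smallest Otoa share, had more of each of these genes than replicate 2, and a link to the share was not tested.

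Across all 3 libraries, 1 of 3510 genes passed the test between the sides (0.0285%), and the median log2 difference over all genes was 0.22 towards the Sparcl1 side. This gene was Sptssa (chr12:54645392-54656573, minus strand), a small subunit of the serine palmitoyltransferase that starts the synthesis of sphingolipids. It averaged 5056, 4424 and 4376 CPM on the Sparcl1 side of replicates 1 to 3 and 281, 330 and 439 CPM on the Otoa side, with no overlap (log2 difference 3.71 ± 0.26 SE, adjusted p = 0.00295 by limma). At an unadjusted p under 0.05 there were 118 genes higher on the Sparcl1 side and 61 on the Otoa side. Together these are near the share of 0.05 of all genes tested that chance gives at this p. The 2 Otoa cells of replicate 1 carry as much weight in this fit as the 75 of replicate 3.

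Without replicate 1, 232 of 3507 genes passed (6.62%), 119 higher on the Sparcl1 side (3.39%) and 113 on the Otoa side (3.22%). Only 2 libraries were left in this fit, and its variance came mostly from other genes, as it did with 3 libraries. The genes named here were chosen after their values had been seen. Of the marginal cell list, 0 of 5 genes tested across the 3 libraries had passed between the sides, beside 0.0285% of all genes in that fit. Its member Lmx1a stood at 127 and 103 CPM on the Sparcl1 side against 107 and 73.9 CPM. Kcne1 averaged 174 and 162 CPM in replicates 2 and 3 against 0 and 0 CPM on the Otoa side, at least 20.0-fold higher at a floor of 3 UMIs over the class (8.39 CPM). Cldn11 averaged 325 and 383 CPM against 0 and 0 CPM, at least 42.2-fold higher, and Esrrb, Hmx2 and Kcnq1, too weak for the test of these 2 libraries, were at 0 on the Otoa side in both as well (Esrrb and Hmx2 were tested across the 3 libraries and did not pass), which gave bounds of at least 10.0-, 9.28- and 7.15-fold. Enpep (926 and 541 CPM against 17.2 and 9.95 CPM), Anxa1, the homeobox gene Gsc and the phospholipase Pla2g7 (481 and 839 CPM against 0 and 13.0 CPM) were further leading genes of this side. On the Otoa side other genes were high. Ttr was at 0 and 235 CPM on the Sparcl1 side and at 2303 and 4343 CPM on the Otoa side, Vmo1 at 25.1 and 91.5 against 740 and 1360 CPM, Rnase1 at 27.2 and 36.7 against 437 and 1118 CPM, and Wnt4, Postn, Lypd2, Agr2 and Lmo1 went the same way. In replicate 1, left out of this fit, 100 of the 118 Sparcl1-side genes measured there had the same direction, but only 55 of 112 Otoa-side genes, and Ttr was at 542 CPM in its 15 Sparcl1 cells and at 0 CPM in its 2 Otoa cells.

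The same division was then made at E14, in libraries that had no part in choosing these genes, after the E16 values had been seen. There the sides held 120 and 58 cells in replicate 1 and 231 and 62 in replicate 2. Of the 119 Sparcl1-side genes of E16, 103 (86.6%) were higher on that side in both E14 libraries, and of the 113 Otoa-side genes 104 (92.0%) were higher on the Otoa side in both. Over all genes with the same E16 direction, called or not, these shares were 40.9% and 43.0%. Ttr at E14 was at 11.3 and 0.787 CPM on the Sparcl1 side and at 1667 and 697 CPM on the Otoa side, and Vmo1 at 2.43 and 3.25 against 291 and 214 CPM. Enpep was at 361 and 346 CPM against 1.62 and 10.5 CPM, Cldn11 at 56.9 and 74.1 against 0 and 8.13 CPM, Anxa1 at 301 and 369 against 0 and 0 CPM, and Sptssa at 2381 and 2697 against 352 and 397 CPM. For each of these genes the 2 sides were apart in both E14 libraries, in the direction of E16. Otx2 was present on both sides at both ages but higher on the Otoa side, with 78.3 and 58.8 against 212 and 238 CPM at E14 and 74.0, 65.2 and 71.7 against 140, 281 and 156 CPM in the 3 libraries at E16, where it passed no test. At P1, in the 2 libraries with at least 5 cells a side, 84 (70.6%) and 67 (56.3%) of the 119 genes and 84 (74.3%) and 78 (69.0%) of the 113 had the direction of E16, beside 57.2% and 54.1%, and 52.9% and 52.6%, of all genes with the same E16 direction. In replicate 4 the Sparcl1-side share was thus close to that of all genes. There Cldn11 (0 CPM on the Sparcl1 side against 46.3 CPM), Enpep (26.6 against 36.0 CPM), Ttr (860 against 553 CPM) and Otx2 (198 against 156 CPM) went the other way. Vmo1, Anxa1 and Sptssa kept the direction of E16 there, and in replicate 1 at P1 all of these genes did.

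**Figure D4:**
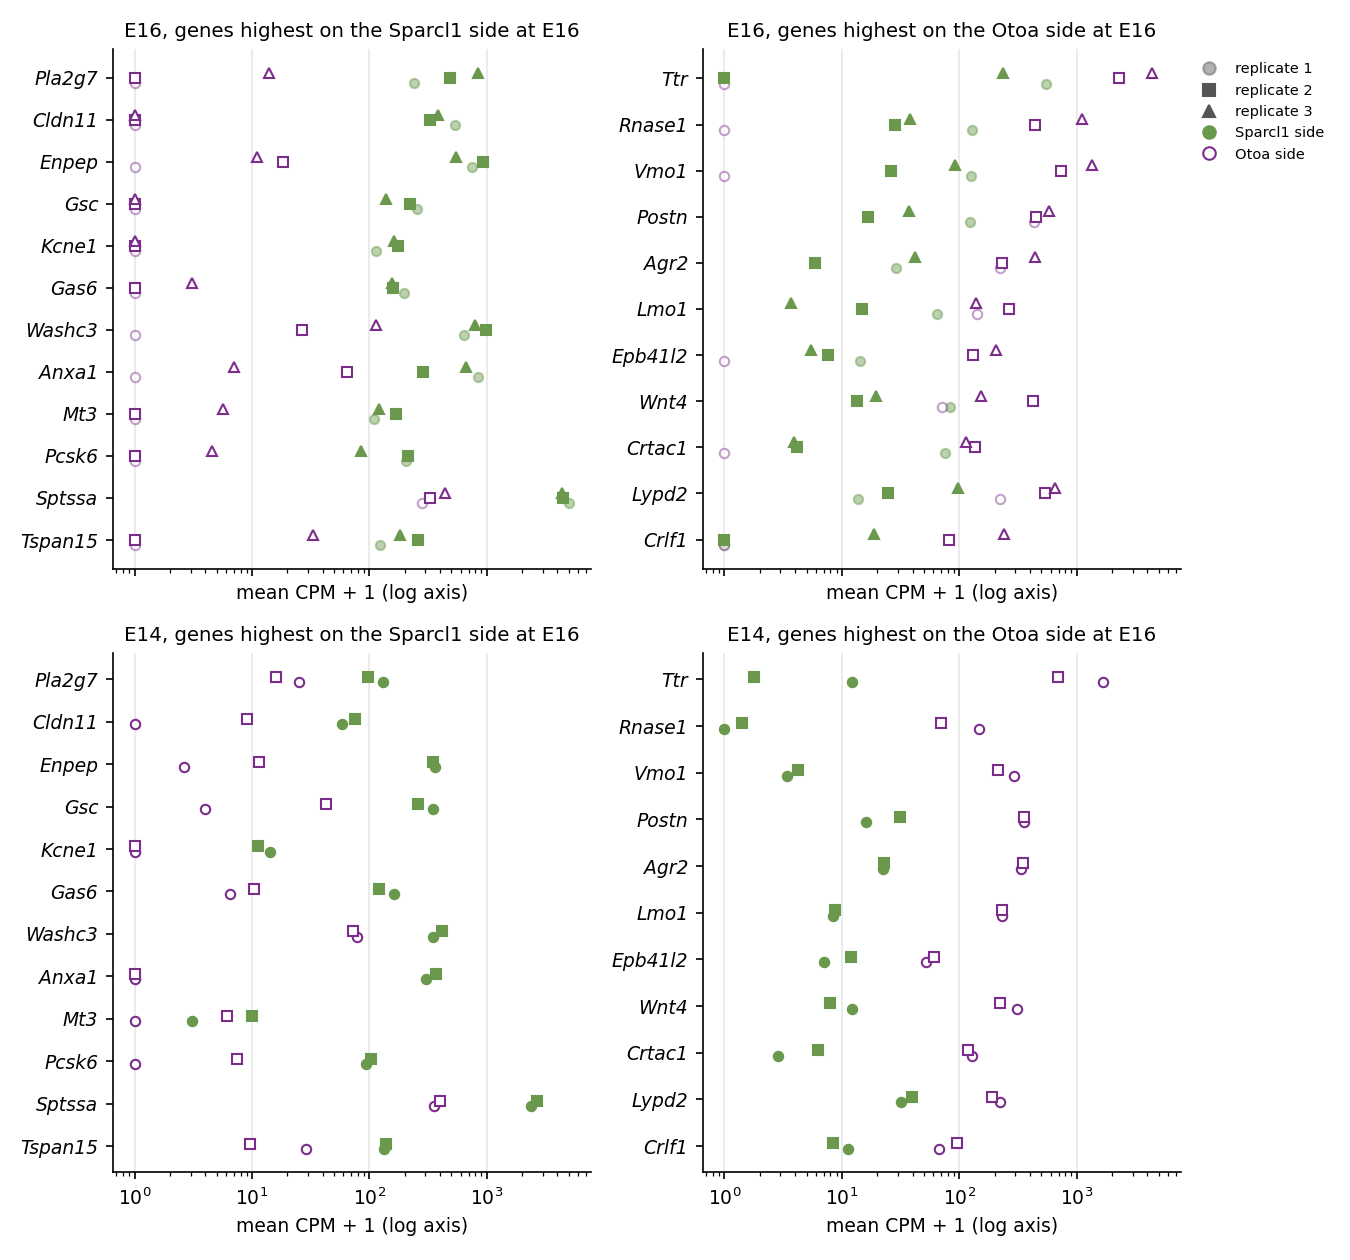
Level (x axis, mean CPM + 1, log axis) of leading genes on the Sparcl1 side (filled) and the Otoa side (open) of Oc90 cells at E16 (top) and E14 (bottom), with 1 point a library. Genes were chosen on replicates 2 and 3 at E16; replicate 1, with 2 Otoa-side cells, is pale, and in both E14 libraries every gene shown lies on the same side as at E16, with the sides closest for Mt3.

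The Otoa side was also set beside the cells of the floor that express Otoa. This gene is best known from interdental cells at the medial edge of the floor, where it anchors the tectorial membrane, and Cdkn1c and H19 mark the E16 cells with much Otoa and little Oc90. Cdkn1c averaged 8057 and 10257 CPM in those Otoa cells of replicates 2 and 3, 910 and 1013 CPM on the Otoa side and 959 and 1099 CPM on the Sparcl1 side of the Oc90 cells. H19 averaged 1396 and 1825 CPM, 101 and 168 CPM, and 132 and 188 CPM in the same order. Over the 7 interdental genes other than Otoa, the summed level was 13508 and 16844 CPM in Otoa cells, 2007 and 4184 CPM on the Otoa side and 2915 and 3574 CPM on the Sparcl1 side. Across the 3 libraries 0 of 5 interdental genes tested had passed between the sides, in a fit where 1 of all 3510 genes passed (0.0285%). That count is therefore no result about interdental genes. Smoc2 stood at 42.7 and 240 CPM there against 35.1 and 42.2 CPM on the Sparcl1 side and 2318 and 2392 CPM in Otoa cells, and Tpm2 at 36.8 and 171 CPM against 4.24 and 10.4 CPM and 229 and 484 CPM. Matn1 stood at 0 and 17.8 CPM on the Otoa side against 8.91 and 31.1 CPM on the Sparcl1 side, Ptgds at 648 and 1672 against 1555 and 1679 CPM, and Krt19 at 268 and 903 against 222 and 524 CPM. KO genes summed to 460 and 471 CPM on the Otoa side against 1157 and 1355 CPM on the Sparcl1 side. The mesenchyme list summed to 660 and 992 against 440 and 492 CPM, with Postn at 448 and 585 CPM of the first pair, and its part in the difference was not tested.

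The 218 Otoa cells, which passed an Otoa value of at least 2 on the ln scale with Oc90 under the threshold and no Pou4f3 (22, 44 and 152 cells), were compared next. Oc90 cells differed from them in 533 of 8993 genes (5.93%), 314 higher (3.49%) and 219 lower (2.44%), with a median log2 difference of 0.12 over all genes. The leading genes were those of the wider comparison. Dapl1, Vmo1, Postn, Rnase1, Cldn11 and Aqp5 had no UMI in any Otoa cell, which placed them at least 103-, 89.7-, 63.8-, 58.1-, 41.9- and 38.4-fold higher in Oc90 cells at a floor of 4.09 CPM (3 UMIs over the class). Ttr averaged 0, 5.80 and 1.43 CPM in Otoa cells (log2 difference 6.57), Ecel1 0, 0 and 5.94 CPM (5.36) and Enpep 0, 0 and 2.55 CPM (4.96). All of these genes, from Dapl1 to Enpep, were under 10 CPM in the Otoa cells of every library. They entered this test only through Oc90 cells, and how many of the 314 genes did so was not counted. Gata2 separated these classes more widely than it did Oc90 cells and all others, at 150, 141 and 122 CPM against 0, 13.8 and 1.78 CPM (log2 difference 3.38 ± 0.45 SE, adjusted p = 0.000171 by limma). It passed 10 CPM in the Otoa cells of replicate 2 alone, so it too entered the test mainly through Oc90 cells. Lower in Oc90 cells were Smoc2 (108, 49.5 and 118 CPM against 1212, 2318 and 2392 CPM, log2 difference -4.30), Cdkn1c (-3.05), H19 (-2.94), the actin-severing protein Gsn (-3.11), Tmprss4 (-3.70), Man1c1 (-3.40), Fbp2 (-3.16), Fxyd6 (-3.16) and Pde4b (-3.09). Of 7 interdental genes tested, 5 were lower and 1 higher (median -2.79). Ptgds, the prostaglandin D synthase, was the 1 interdental gene called higher in Oc90 cells, at 922, 1045 and 1388 CPM in Oc90 cells, 400.3, 666 and 986 CPM in Otoa cells and 67.7, 72.3 and 103 CPM outside the Oc90 cells as a whole (log2 differences 0.77 and 3.63). It was seen in 63.6% of Oc90 cells and 68.3% of Otoa cells at 1500 UMIs but in 0.670% of HCs. The count of calls rose to 972 without replicate 1 and fell to 340 without replicate 3.

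Oc90 cells by the same rule were 15.1% and 18.0% of the cells at E14 (332 and 550 cells), and 1.81%, 0.734%, 0.357% and 1.20% at P1 (68, 16, 9 and 67 cells). Age cannot be told apart from collection and dissection here, since each library holds cells of a single age and each age was deposited as its own table. The labels do not name sequencing runs. Between E14 and E16, 14 of 8926 genes were higher (0.157%) and 0 lower, with a median log2 difference of -0.11. At an unadjusted p under 0.05 by limma, 243 were higher and 124 lower. Together these are under the share of 0.05 of all genes tested that chance gives at this p. Of the 8 highest, 6 encode ribosomal proteins or bear their names. Rpl39 rose from 51.7 and 100.3 CPM at E14 to 2130, 1848 and 1279 CPM at E16, but in all other cells it likewise went from 72.4 to 118 CPM at E14 to 1764 to 2431 CPM at E16, so it was not particular to Oc90 cells, and reads of Rpl39 and its pseudogene Rpl39-ps may be shared. Vmo1 rose from 89.6 and 65.0 to 251, 226 and 624 CPM (log2 difference 1.97 ± 0.38 SE, adjusted p = 0.0413 by limma), Ptgds from 303 and 277 to 922, 1045 and 1388 CPM (1.89) and the transcriptional coregulator Cited1 from 17.8 and 33.6 to 144, 156 and 153 CPM (2.21). For these 3 genes every E16 library was above both E14 libraries, as the rule for naming genes required. A pseudocount of 1 CPM left 0 calls, and without the filter on low values 5 genes were higher and 42 lower. Without E16 replicate 1 or 2 no call was left, without E14 replicate 1 there was 1 call and without E14 replicate 2 there were 5, without E16 replicate 3 there were 4, and without P1 replicates 1 or 3, which share the estimate of the spread, 27 and 23.

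From E16 to P1, 36 genes were higher (0.403%) and 104 lower (1.17%), 1.57% in either direction, with a median of -0.12. Crhbp, the binding protein of corticotropin-releasing hormone, went from 0, 1.69 and 3.05 CPM at E16 to 584, 272, 548 and 584 CPM at P1 (log2 difference 5.40 ± 0.39 SE, adjusted p = 3.69e-07 by limma). Under 10 CPM at E14 and E16, it entered the test only through the P1 libraries. Vmo1 went from 251, 226 and 624 CPM to 9924, 7632, 5653 and 5622 CPM (4.37) and Rnase1 from 158, 118 and 437 CPM to 4743, 1434, 2568 and 5074 CPM (3.86). The heat shock protein Hspb1 (2.96), the transcription factor Fosl1 (2.91), Metrn (2.88), Igfbp2 (2.68) and Kazald1 (2.60) were the others of the 8 highest, and the keratins Krt8 (1.64) and Krt18 (1.59) and Cldn9 (1.11) rose among the lists. Of 16 ion transport genes 1, Kcne1, fell and none rose (median -0.56 against -0.12 over all genes), and of 7 marginal cell genes 2, Kcne1 and Esrrb, fell. Kcne1 stood at 29.2, 78.5 and 52.1 CPM at E16 and at 5.42, 0, 0 and 0 CPM at P1 (log2 difference -2.43), Esrrb at 54.5, 36.1 and 34.0 CPM and then 0 in all 4 libraries (-2.34), Cldn11 at 217, 150.5 and 147 CPM and then 100.4, 30.7, 0 and 22.5 CPM (-2.36) and Aldh1a1 at 109, 89.9 and 31.5 CPM and then 12.8, 15.1, 0 and 6.80 CPM (-2.17). The Wnt agonist Rspo3 went from 100.3, 90.1 and 79.8 CPM to at most 6.49 CPM in each of the 4 P1 libraries (-3.00) and Spp1 from 184, 152 and 20.1 CPM to 0, 0, 0 and 2.39 CPM (-3.22). Kcne1, Esrrb, Rspo3 and Spp1 were under 10 CPM in every P1 library, so they entered the test only through the earlier ages. Rpl39 (-4.04) and Rps28 (-2.99) fell as well, and in all other cells Rpl39 stood at 1764 to 2431 CPM at E16 and 108 to 459 CPM at P1, and Rps28 at 3010 to 3406 and 246 to 842 CPM. Otx2 at 127, 105, 29.5 and 156 CPM and Ttr at 2492, 1368, 2608 and 836 CPM passed no test at P1 and overlapped with E16. At P1, 15, 6, 2 and 20 cells were on the Sparcl1 side and 13, 4, 2 and 16 on the Otoa side in replicates 1 to 4, and the part of the sides in these changes was not tested. Replicates 2 and 3 at P1 hold only 16 and 9 Oc90 cells, so a 0 there is a weak limit, and the count of calls was 19 without E16 replicate 1, 25 without E16 replicate 2 and 263 without P1 replicate 1.

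Whether an age difference was larger in Oc90 cells than in the rest was tested on the difference between the classes within each library. From E14 to E16, 0 of 9089 genes passed (0.0%), with 165 at an unadjusted p under 0.05 by limma, the only tool run, and the smallest adjusted p was 0.0509. The 165 genes are under the share of 0.05 of all genes tested that chance gives at this p. On simulated data this test recovered only 18.0% of changes of 2 on the log2 scale, so 0 calls say little about a lack of change. From E16 to P1, 59 passed (0.649%), 15 higher (0.165%) and 44 lower (0.484%), with Crhbp (5.50), Vmo1 (3.97) and Rnase1 (3.23) highest and Pcsk6 (-3.55), Pla2g7 (-3.42) and Gas6 (-3.15) lowest. Pcsk6, Pla2g7 and Gas6 were all leading genes of the Sparcl1 side at E16. Within Oc90 cells alone, Pla2g7 and Gas6 did not pass the test between E16 and P1. Without E16 replicate 1 there were 5 calls and without E16 replicate 2 there were 13.

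**Figure D5:**
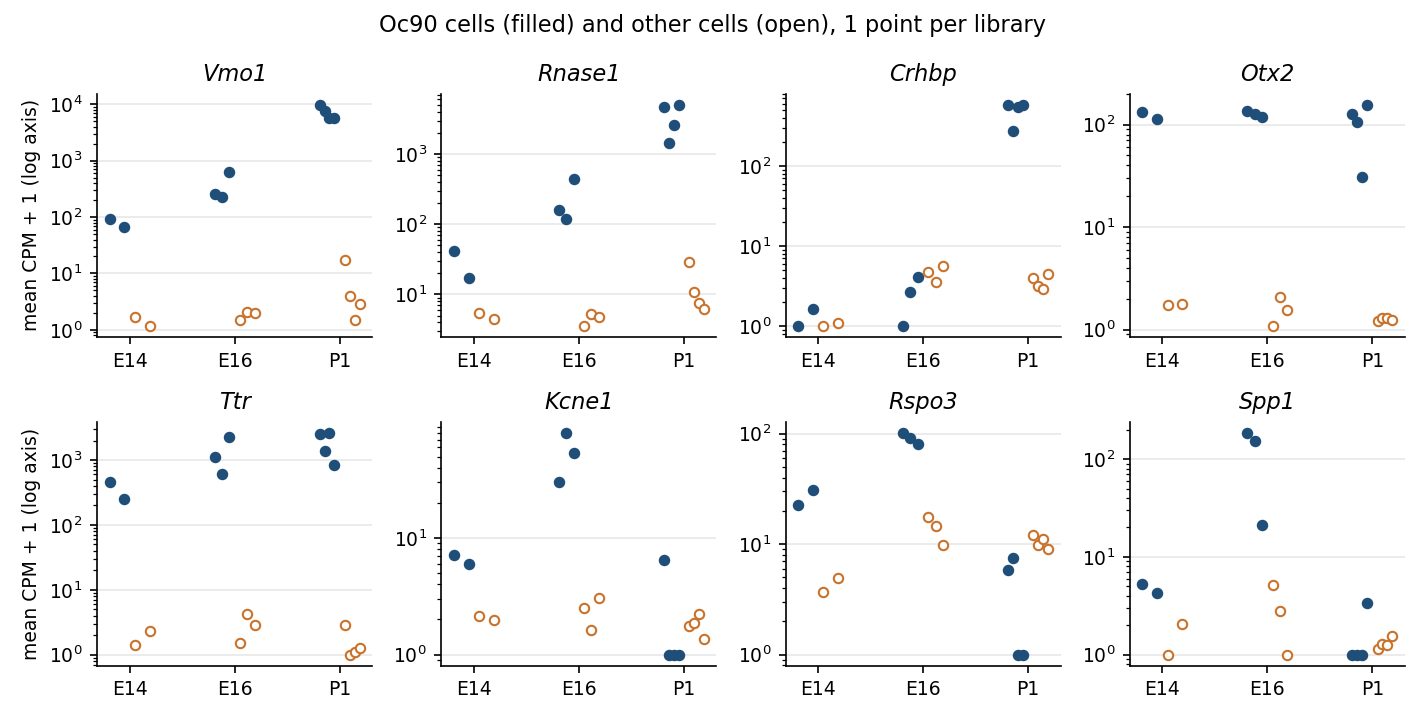
Level (y axis, mean CPM + 1, log axis) of 8 genes in Oc90 cells (filled) and all other cells (open) at E14, E16 and P1, with 1 point for each of the 9 libraries. Vmo1 and Rnase1 are higher at each later age in Oc90 cells and lie far above other cells in every library, Crhbp appears at P1, Otx2 has 1 low library at P1, and Kcne1, Rspo3 and Spp1 are highest at E16.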

How the data were processed

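Single-cell RNA-seq of cochlear duct cells from CD1 mice at E14, E16, P1 and P7 was used. The authors aligned the reads to mm10 with Cell Ranger 2.1.1 and made the deposited tables, 1 for each age, whose values are the natural log (ln) of 1 plus 10000 times a gene's UMIs over the total of that cell, as the values show and as Seurat 2.0 computes them. They state that cells under 200 genes and 1500 UMIs, over 3000 genes and 15000 UMIs, or over 5% mitochondrial or stress genes were left out, and 15 Oc90 cells in the table had over 3000 genes. Whole UMIs were recovered from the steps of these values (100% within 2% of a whole number), and the 3 E16 libraries held 3828399, 10274769 and 11797815 UMIs. Doublets were not called.

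The Oc90 cells and the gene lists were chosen with earlier results of these data known, and some lists were drawn partly from the study's tables on the same libraries. For each library and class the shares were averaged over cells to CPM. Genes averaging 10 CPM or more (50 CPM between the sides) were tested with limma 3.58.1 (R 4.3.3) on log2(CPM + 10), adjusting p over all genes tested. Limma pools the spread over genes, and in every fit on all libraries the pooled part weighed more than a gene's own. The Oc90 cells and other cells of a library come from the same capture, so the library was a block within E16. Oc90 and Pou4f3, and Otoa and Sparcl1 where these chose the cells, were not tested. Named were the genes with the largest differences past the threshold in the same direction in every library (15 each way against all other cells, 8 each way elsewhere, without Gm, Rik, mitochondrial and haemoglobin genes) and list members. A few genes are counted but not reported here. On simulated data with 200 changed genes, the comparison with other cells (9035 genes) recovered 50.0% at a log2 difference of 1 and 93.0% at 2. The E14 to E16 comparison (8935 genes) recovered 0% and 14.0%. The change of the difference between classes from E14 to E16 recovered 0% and 18.0%, and the comparison of the sides 10.1% and 51.0%. The simulated spread was set by hand and not taken from these libraries, so these shares hold only for that spread. Alternatives are given in the closing section. Promoters and positions came from RefSeq (GRCm38.p6) and GENCODE M21, and python 3.11.15, numpy 2.4.6, scipy 1.17.1 and pandas 2.3.3 were used.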

Additional observations from a re-analysis of the deposited data

Results flagged for a closer look

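In groups of 4 P1 libraries, 5 genes of the 42 groups examined had a library that stood apart by Dixon's ratio at its 95% limit, which chance gives in about 1 of 20 groups. The library apart was at 1130 CPM for Rpl37, 272 CPM for Crhbp, 2.39 CPM for Spp1, 542 CPM for Col9a3 and 5.42 CPM for Kcne1 in the Oc90 cells. Spp1 and Kcne1 were at 0 in the other 3 libraries, where any value above 0 stands apart, and the chance rate does not apply to them.

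The difference between Oc90 cells and other cells changed between E16 and P1 for 59 genes, by limma's test of that change. The values are log2 changes of that difference, P1 against E16, and a change of the difference need not be a change within the Oc90 cells. It was higher at P1 for Crhbp (5.50), Vmo1 (3.97), Rnase1 (3.23), the heat shock protein Hspb1 (2.85), the growth factor-binding protein Igfbp2 (2.79), Aebp1 (2.24), Scrg1 (2.19), Nnat (2.08) and, among the lists, the transcription factor Sox9 (1.36). It was lower at P1 for the protease Pcsk6 (-3.55), Pla2g7 (-3.42), Gas6 (-3.15), Spp1 (-3.01), St8sia3 (-2.84), the hormone-related Pthlh (-2.78), Rspo3 (-2.77), Podn (-2.70), Kcne1 (-2.35), Sparcl1 (-2.34), Aldh1a1 (-2.12), the collagens Col9a1 (-2.01), Col2a1 (-1.25) and Col9a3 (-1.18), Lum (-1.93) and Pdia6 (-1.16). Within Oc90 cells alone, Aebp1, Nnat, Sox9, Pla2g7, Gas6, Pthlh, Sparcl1, the 3 collagens, Lum and Pdia6 did not pass the test between E16 and P1, and Podn was not tested.

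At P7, an age with no comparison above, 4 cells met the Oc90 rule, all of them in 1 of the 2 libraries. They held 14, 44, 294 and 54 UMIs of Oc90 and 92, 31, 100 and 6 UMIs of Vmo1, 1 of them held Otx2 and 1 Dapl1, and none held Ttr or Enpep.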

How the results depend on the processing

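The number of E16 Oc90 cells was 435 at a threshold of 4.5, 515 at 2.5 and 458 without cells over 3000 genes, against 473. Of the counts of calls, those that moved by over 1.5 times were as follows. Without a filter on low values, 752 genes were called between Oc90 and other cells (1416 with it), 3 between the sides (1), 355 against Otoa cells (533), 47 from E14 to E16 (14), now 5 higher and 42 lower where 14 were higher and 0 lower, 6 from E16 to P1 (140), and, for the change of the difference between classes, 2 (0) and 8 (59). Without the replicate block, that is without pairing the classes of a library, the calls numbered 765, 5 between the sides and 340 against Otoa cells. Libraries of different ages share only a number and were not paired. A pseudocount of 1 CPM gave 290 against Otoa cells, 0 and 51 between ages and 10 for the later change of the difference. Leaving out cells over 3000 genes gave 3 between the sides, 8 and 79 between ages and 32 for the later change of the difference. Drawing cells down to 1500 UMIs gave 10 between the sides. Pooling UMIs or a threshold of 4.5 gave 1 each for the earlier change of the difference. Leaving out each library gave 1072 to 1979, 19 to 232, 340 to 972, 0 to 27, 19 to 263, 0 to 2 and 5 to 66 calls in the order of the comparisons above. Fst changed sign between E16 and P1 at a threshold of 2.5 (0.51 against -1.97). The cause was not tested. Depth limits the weakest classes, the 2 Otoa-side cells of E16 replicate 1 and the 16 and 9 Oc90 cells of P1 replicates 2 and 3, where a gene at 0 says little.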
